A study of Mus musculus with 4 samples.

Results

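The 43 genes described here are imprinted genes of the mouse. They were chosen by name and matched by Ensembl ID to the deposited count table, where they take 43 of 55487 rows. They fall into 22 imprinted domains, 11 of which hold more than 1 of these genes. By their textbook class, 25 are expressed from the paternal allele, 17 from the maternal allele, and Gnas from either allele depending on the transcript and the tissue. Reads were not assigned to alleles, so every value below is the output of both alleles together. Whether the textbook class of a gene holds in these cells is therefore not known, and counts by allele below are counts by class.

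RNA of E14-Tg2a mESCs, an established line of mouse embryonic stem cells, was sequenced on days 2 and 4 (d2 and d4) of a differentiation towards cardiogenic mesoderm, to find the genes that change while an endothelial programme starts. Each day had 2 libraries. The d2 cells had been cultured for 48 h without feeders or serum, in medium with N2 and B27 supplements. The d4 cells had been through the same 48 h, were then dissociated, and were reaggregated for 40 h with Activin A at 8 ng/ml, BMP4 at 0.5 ng/ml and VEGF at 5 ng/ml. Day, added factors and reaggregation changed together in this comparison and cannot be told apart. The cells were unsorted, so fewer cells of a type and less RNA per cell cannot be told apart either.

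Total counts ran from 11397439 to 16851485 per library, and 3 counts, taken as the floor of detection, were worth 0.177 to 0.254 CPM (counts scaled to the library total, after TMM normalization). Of 14932 genes tested with edgeR, 1933 were higher and 1694 lower at d4 at an adjusted p under 0.01, and the 14932 log2 fold changes had a median of -0.027. Marker genes followed the labelled days. Of 10 pluripotency markers 8 fell, while all 10 mesoderm markers, all 10 markers of primitive blood and 8 of 9 tested endothelial markers rose. The replicates differed along GC content: across 14924 tested genes, the ratio of replicate 2 to replicate 1 ran with GC content at a Spearman rho of -0.72 at d2 and -0.49 at d4.

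Imprinted genes are transcribed mainly or only from the copy inherited from one parent. The choice is set by DNA methylation laid down in the egg or the sperm at control regions, which the zinc finger proteins ZFP57 and ZFP445 and the methyltransferase DNMT1 keep through the first divisions of the embryo. Most of these genes sit in clusters, where a single control region governs protein-coding genes and a long noncoding RNA that usually comes from opposite alleles. Many of them act on growth of the embryo and the placenta, with paternally expressed genes often promoting growth and maternally expressed genes often restraining it.

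Windows of 300 bases around the start (250 before, 50 after), taken from the RefSeq promoter table, were analysed for 35 of the 43 genes, 53 windows in all. The entries of Peg10, Peg13, H19, Sgce, Rtl1, Impact, Cdkn1c and Trappc9 were not analysed here. CpG dinucleotides numbered 15 in the median window of these genes and 7 in the median of all 32851 windows. The 250 bases before the start are shown for Peg3, whose window shares 263 bases with that of its head-to-head neighbour Usp29, for Mest, and for Meg3, since the first 3 of these genes rose and the last fell between d2 and d4. They are from RefSeq on GRCm38.p6, read 5′ to 3′ on the strand of the gene, with each CpG in capitals. The Peg3 sequence lies at chr7:6730420-6730669 on the minus strand, that of Mest at chr6:30737800-30738049 and that of Meg3 at chr12:109540746-109540995, both on the plus strand.
Peg3: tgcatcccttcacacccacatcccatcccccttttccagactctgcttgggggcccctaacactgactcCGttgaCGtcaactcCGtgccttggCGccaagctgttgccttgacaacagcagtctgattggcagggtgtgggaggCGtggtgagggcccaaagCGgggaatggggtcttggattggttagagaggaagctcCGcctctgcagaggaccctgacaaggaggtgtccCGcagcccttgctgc
Mest: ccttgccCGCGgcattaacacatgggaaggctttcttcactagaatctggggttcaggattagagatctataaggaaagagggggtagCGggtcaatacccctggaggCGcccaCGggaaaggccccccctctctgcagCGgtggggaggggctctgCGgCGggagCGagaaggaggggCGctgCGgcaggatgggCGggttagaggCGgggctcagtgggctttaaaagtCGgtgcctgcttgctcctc
Meg3: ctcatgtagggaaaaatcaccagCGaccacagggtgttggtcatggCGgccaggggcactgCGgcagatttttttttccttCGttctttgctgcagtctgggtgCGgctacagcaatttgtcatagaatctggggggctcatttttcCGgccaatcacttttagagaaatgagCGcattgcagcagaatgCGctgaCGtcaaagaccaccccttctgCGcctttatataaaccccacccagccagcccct
The part shown held 8 CpG for Peg3, 14 for Mest and 10 for Meg3. The letters TGCCGC, those that ZFP57 is known to bind, were searched on both strands. They occurred 2 times in the Mest window and 1 time in that of Meg3, and were not in that of Peg3. Over all genes 11.6% of windows held them, and of the windows of these imprinted genes 22.6% did (12 of 53). The 12 windows belong to 11 genes, and 2 of them are overlapping windows of Mest. TGCCGC contains a CpG, and the windows of these genes hold more CpG, so the shares are not matched for composition. A match in letters is a description of the window and not a binding site.

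Between d2 and d4, 18 of the 43 imprinted genes rose, 6 fell, 15 did not pass the test and 4 had too few counts to be tested. Among all genes tested, 12.9% rose and 11.3% fell. The median log2 fold change of the 39 imprinted genes tested was 0.94. Of the paternally expressed genes 10 rose, 3 fell and 8 did not pass, with a median of 1.04. Of the maternally expressed genes 7 rose, 3 fell and 7 did not pass, with a median of 0.73. The filter on low counts kept a gene that reached the minimum on either day alone, so a gene kept only through its high day had to differ.

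These calls rested on 2 libraries per day. Without either d2 library edgeR called 0 of 14932 genes, with a smallest adjusted p of 0.0181 without replicate 1 and 0.0172 without replicate 2. There 26 and 27 of the imprinted genes had an unadjusted p under 0.05, as did 6343 and 6012 of all genes. With all 4 libraries DESeq2 called 19 imprinted genes higher and 6 lower, where 14.6% and 12.7% of all genes tested were. On the same 3 libraries it called 15 imprinted genes higher and 5 lower without d2 replicate 1, where 7.03% and 4.89% of all genes tested were called. Without d2 replicate 2 it called 14 and 5, where 6.6% and 4.84% of all genes were.

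**Figure D1:**
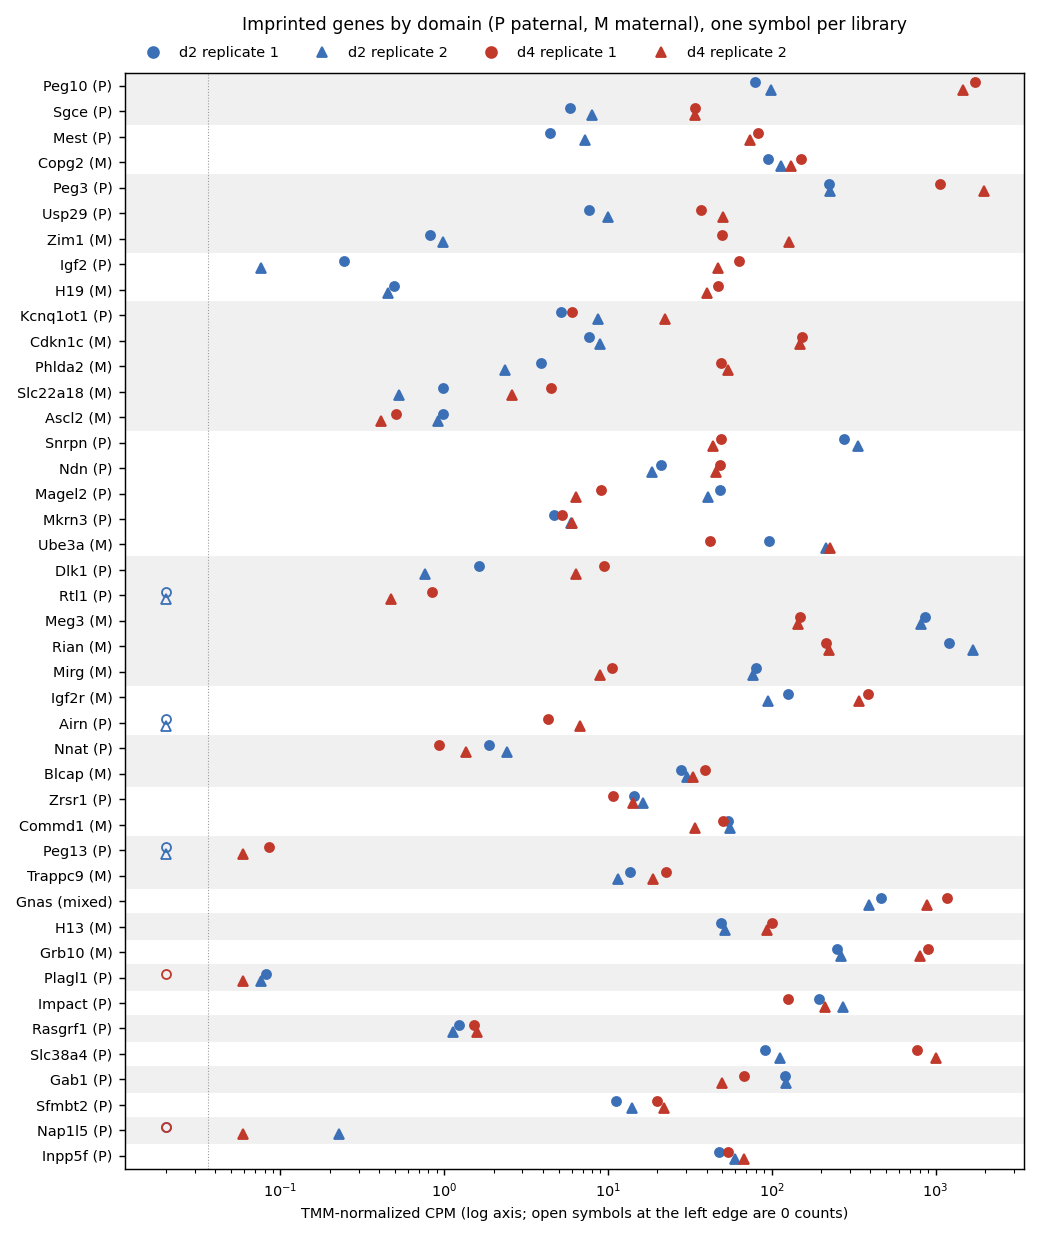
Expression of the 43 imprinted genes in each library, in TMM-normalized CPM on a log axis, ordered by domain (shaded blocks) with the parental allele in brackets (P paternal, M maternal). Blue symbols are d2 and red symbols d4, circles replicate 1 and triangles replicate 2, and open symbols at the left edge are 0 counts. Red symbols sit far to the right of blue ones for Peg10, Mest, Zim1, Igf2, H19, Cdkn1c and Phlda2, and to the left for Snrpn, Magel2, Meg3, Rian and Mirg.

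The largest output of any of the 43 genes at d4 per length of transcript came from Peg10, Slc38a4 and Peg3. Peg10 and its neighbour Sgce lie head to head on chromosome 6 (GRCm38, chr6:4747306-4760517 on the plus strand and chr6:4674350-4747207 on the minus strand), and both rose. Peg10, a gene tamed from a retrotransposon and needed for the placenta, stood at 79.6 and 98.6 CPM in the d2 libraries and at 1739 and 1467 CPM in the d4 libraries. Both d4 libraries were far above both d2 libraries, with a log2 fold change of 4.17 (SE 0.23, edgeR adjusted p = 6.64e-05). Per kilobase of exon, Peg10 moved from percentile 74.6 to percentile 99.1 of the genes tested. Sgce, which encodes epsilon-sarcoglycan, a membrane protein of muscle and other tissues, rose from 5.89 and 7.97 CPM to 34.2 and 33.9 CPM (log2 fold change 2.29, SE 0.25, edgeR adjusted p = 0.000556). The pair thus rose together by unequal folds: the level of Peg10 per kilobase was 21.5 and 19.7 times that of Sgce at d2 and 80.9 and 68.8 times at d4.

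The Peg3 domain (chr7:6671269-6967219 from Zim1 to Usp29) holds 3 of these genes, and all of them rose. Peg3, a large zinc finger protein that binds DNA, was at 225 and 226 CPM at d2 and at 1061 and 1964 CPM at d4. In CPM the d4 libraries differed from each other by more than the lower of them exceeded d2, and the call was made over that spread (log2 fold change 2.74, SE 0.32, edgeR adjusted p = 0.000701). Usp29, a ubiquitin peptidase read from the same promoter region in the other direction, went from 7.69 and 10.0 CPM to 37.2 and 50.2 CPM (log2 fold change 2.30, SE 0.27, edgeR adjusted p = 0.000742). Per kilobase, Peg3 was 39.7 and 30.7 times Usp29 at d2 and 38.7 and 53.1 times at d4, so the ratios of the days overlapped.

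Zim1, a zinc finger gene of the same domain that is expressed from the maternal allele, had 0.818 and 0.987 CPM at d2 and 50.0 and 127 CPM at d4. The d4 libraries again disagreed in size but both lay far above d2 (log2 fold change 6.60, SE 0.57, edgeR adjusted p = 0.000222). Relative to Peg3, Zim1 gained: the level of Peg3 per kilobase was 167 and 139 times that of Zim1 at d2 and 12.9 and 9.37 times at d4.

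Of the Mest pair on chromosome 6, Mest rose and Copg2 did not pass the test. Mest, an enzyme of the hydrolase fold that serves as a marker of mesoderm, was at 4.42 and 7.21 CPM at d2 and at 82.0 and 73.5 CPM at d4 (log2 fold change 3.74, SE 0.30, edgeR adjusted p = 0.000174). All 10 of the mesoderm markers rose as well, from a summed 4.17 to 4.78 CPM to 926 to 943 CPM, and their part in the rise of Mest was not tested. Copg2, a coat protein of transport vesicles that is transcribed towards Mest, was at 94.3 and 113 CPM at d2 and at 151 and 131 CPM at d4 (log2 fold change 0.44, SE 0.20, edgeR adjusted p = 0.136). The exons of the pair overlap on opposite strands over 23.1% of the exon length of Mest and 17.8% of that of Copg2, and counting was set to use the strand.

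Igf2 and H19 were near the floor at d2 and rose together. Igf2 (chr7:142650766-142666816, minus strand), a growth factor of the embryo, started from 3 and 1 counts in the d2 libraries and reached 744 and 796 counts at d4, or 0.245 and 0.0759 CPM against 63.0 and 46.8 CPM. The ratio of its summed normalized counts was 339, with an exact 95% counting interval of 132 to 1247 (edgeR adjusted p = 5.7e-05). H19 (chr7:142575529-142578143, minus strand), a long noncoding RNA whose maternal expression is coupled to silence of Igf2 on the same chromosome, had 0.491 and 0.456 CPM at d2 and 47.1 and 40.0 CPM at d4. All d4 libraries were far above d2, with a log2 fold change of 6.50 for H19 (SE 0.31, edgeR adjusted p = 4.51e-05). Per kilobase of the whole exon length, H19 was 1.74 and 1.99 times Igf2 in the d4 libraries. Of the Igf2 exon length 62.8% is shared with another gene, and reads there were not counted. The ratio can thus be too high, and the order of the pair is not read. At d2 the ratio rested on the 4 counts of Igf2 and is not read.

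The Igf2 counts are a minimum, since 62.8% of its exon length is shared with an annotated gene on the same strand, Gm49394, and reads that overlap more than 1 gene were not counted. Igf2os, a transcript on the opposite strand, overlaps 1.71% of the exon length of Igf2. It was on neither list of imprinted genes, so it counted as a neighbour, here of the Kcnq1ot1 domain at 296473 bases. Among the neighbours of the imprinted domains it had the smallest adjusted p, at 0.350 CPM at d2 and 35.7 CPM at d4 (log2 fold change 6.62, SE 0.35, edgeR adjusted p = 5.7e-05). Of the markers of endoderm, a tissue known for Igf2 and H19, 1 of 5 tested rose (Sox17), and the list summed to 4.48 to 4.99 CPM at d2 and 11.3 to 17.7 CPM at d4. Afp, which marks yolk sac and liver, had at most 2 counts in any library, and the part of endoderm in these results was not tested.

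In the Kcnq1ot1 domain of chromosome 7 the genes that restrain growth rose. Cdkn1c, an inhibitor of cyclin-dependent kinases, was at 7.61 and 8.88 CPM at d2 and at 153 and 149.6 CPM at d4 (log2 fold change 4.20, SE 0.22, edgeR adjusted p = 5.7e-05). Phlda2, a lipid-binding protein that limits the growth of the placenta, was at 3.93 and 2.35 CPM at d2 and at 48.7 and 54.3 CPM at d4 (log2 fold change 4.04, SE 0.31, edgeR adjusted p = 0.000152). For both genes the d4 libraries were close to each other and far above d2. On the opposite strand, 30.7% of the exon length of Cdkn1c overlaps the gene Gm44732.

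Slc22a18, a membrane transporter next to Phlda2, was at 0.981 and 0.532 CPM at d2 and at 4.49 and 2.59 CPM at d4. The days did not overlap, but the log2 fold change of 2.20 (SE 0.48) just missed the threshold (edgeR adjusted p = 0.0104), and the call depended on the setting. With all libraries it passed in edgeR with upper-quartile scaling and in DESeq2, and did not pass in limma voom. Without either d4 library it passed in edgeR but not in DESeq2 (adjusted p = 0.337 without replicate 1 and 0.0705 without replicate 2), and without either d2 library it passed in neither. Ascl2, a factor of trophoblast, was at 0.981 and 0.911 CPM at d2 and at 0.508 and 0.412 CPM at d4, close to the floor, and did not pass (log2 fold change -1.04, SE 0.47, edgeR adjusted p = 0.126). Of 4 tested trophoblast markers, Eomes, Cdx2 and Plac1 rose and Krt7 fell, with a summed level of 14.7 to 18.1 CPM at d2 and 251 to 280 CPM at d4. Most of that sum was Eomes, at 9.98 and 14.2 CPM at d2 and at 239 and 216 CPM at d4. The defining markers Elf5, Tpbpa, Prl3d1, Prl2c2, Gcm1 and Psg17 had 0 to 2 counts in every library.

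Kcnq1ot1 itself, the long noncoding RNA of the paternal allele that silences this domain, had replicates that disagreed. It was at 5.15 and 8.73 CPM at d2 and at 6.01 and 22.4 CPM at d4, so that the days overlapped (log2 fold change 1.04, SE 0.59, edgeR adjusted p = 0.211). Without d4 replicate 1 it was called higher (log2 fold change 1.68), and without d4 replicate 2 the estimate was -0.21. The annotation gives it a single exon of 93092 bases with a GC content of 40.3%, among the lowest of the 43 genes.

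**Figure D2:**
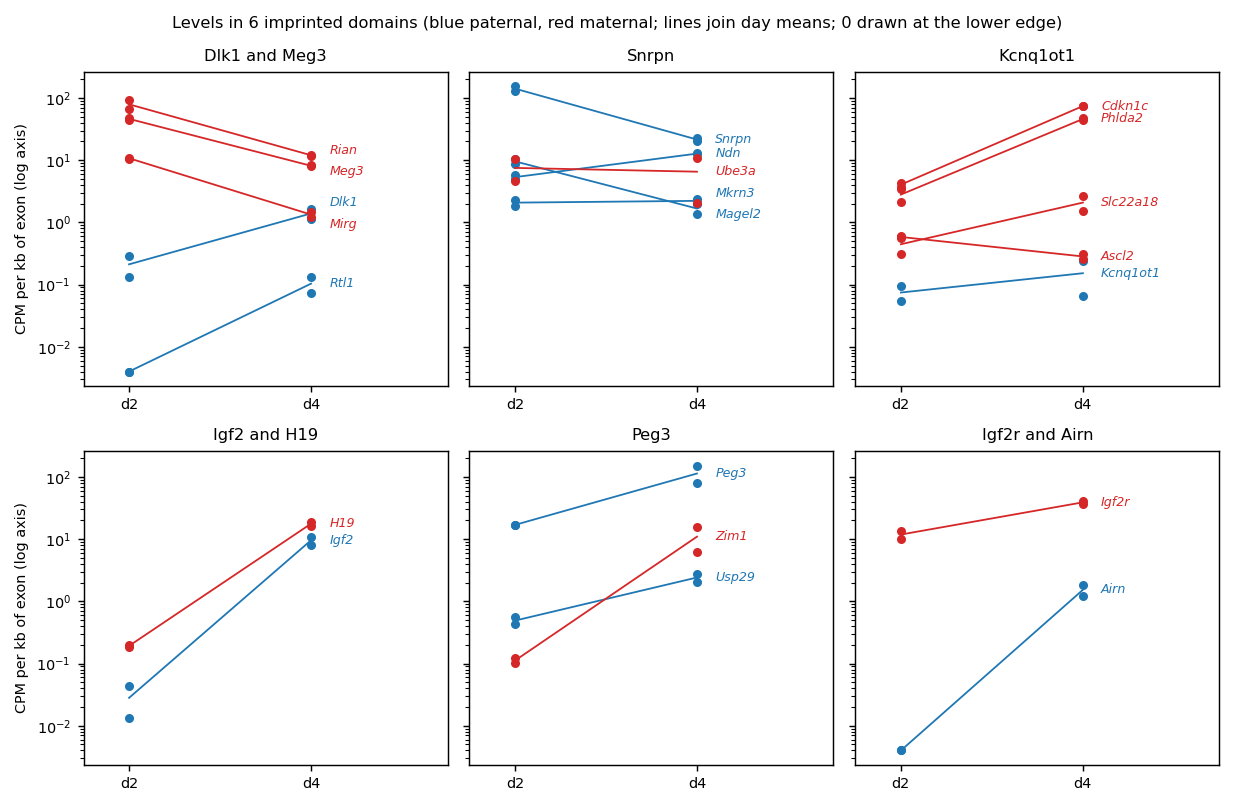
Expression per kilobase of exon in 6 imprinted domains, in CPM per kb on a log axis that all panels share. Each point is a library, lines join the means of the days, blue genes are paternal and red genes maternal, and 0 is drawn at the lower edge. In the Dlk1 and Meg3 panel the maternal RNAs fell while Dlk1 rose, in the Snrpn panel Snrpn and Magel2 fell while Ndn rose, and in the Kcnq1ot1 panel Cdkn1c and Phlda2 rose by similar folds.

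In the Dlk1 and Meg3 domain on chromosome 12 the maternal RNAs fell, while Dlk1, the only paternal gene of the domain tested here, rose. Meg3 (chr12:109541001-109571726), Rian (chr12:109603940-109661716) and Mirg (chr12:109729764-109749460) are long noncoding RNAs read one after the other from the plus strand of the maternal allele, and they carry snoRNAs and a large miRNA cluster. Meg3 was at 859.6 and 810.2 CPM at d2 and at 149 and 145 CPM at d4 (log2 fold change -2.51, SE 0.19, edgeR adjusted p = 0.000139). Rian was at 1204 and 1683 CPM at d2 and at 215 and 223 CPM at d4 (log2 fold change -2.72, SE 0.23, edgeR adjusted p = 0.000219). Mirg was at 80.1 and 76.6 CPM at d2 and at 10.6 and 8.88 CPM at d4 (log2 fold change -3.01, SE 0.22, edgeR adjusted p = 0.000134).

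The 3 RNAs were thus lower by similar folds in libraries that did not overlap. The level of Rian per kilobase was 1.39 and 2.06 times that of Meg3 at d2 and 1.43 and 1.53 times at d4, and that of Mirg was 0.231 and 0.235 times Meg3 at d2 and 0.176 and 0.152 times at d4. Among all genes tested, Rian stood at percentile 96.0 per kilobase at d2 and at percentile 71.5 at d4.

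Of the paternal genes of this domain, Dlk1, a transmembrane protein with EGF repeats that holds back differentiation, rose from 1.64 and 0.759 CPM to 9.39 and 6.35 CPM. The d4 libraries lay above both d2 libraries (log2 fold change 2.71, SE 0.44, edgeR adjusted p = 0.00302), and in DESeq2 the call was lost without d2 replicate 2 (log2 fold change 2.25) or d4 replicate 1 (2.44). Per kilobase, Meg3 was 164 and 334 times Dlk1 at d2 and 4.96 and 7.12 times at d4. Rtl1, a retrotransposon-derived gene needed in the capillaries of the placenta, had 0 counts in both d2 libraries, and 10 and 8 in those of d4. With 3 counts per library as the floor it was at least 2.78-fold higher at d4, and it was too low to be tested.

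Rtl1 lies opposite to miRNAs of the maternal strand, and these carried reads at d2, when Rtl1 had 0 counts. The 6 annotated miRNA genes opposite Rtl1 summed to 16 and 26 counts in the d2 libraries and to 0 in both d4 libraries, all in Mir431 (3 and 3), Mir433 (4 and 12) and Mir434 (9 and 11). These rows count reads of longer RNAs over the hairpins and do not measure mature miRNAs, and they were picked after their values had been seen. The mature arms of the 3 genes with reads are shown. Each of them is a perfect complement to an Rtl1 transcript of GENCODE M21, as are all 10 arms examined opposite Rtl1. This follows from their position on the strand opposite the Rtl1 exons and is not a separate result. Bases 2 to 8, the seed, are in capitals. They are from RefSeq on GRCm38.p6, on the plus strand of chromosome 12, at chr12:109590459-109590523 for Mir431, chr12:109591729-109591802 for Mir433 and chr12:109594528-109594586 for Mir434.
miR-431-5p: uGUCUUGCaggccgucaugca
miR-431-3p: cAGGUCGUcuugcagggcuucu
miR-433-5p: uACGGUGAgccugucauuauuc
miR-433-3p: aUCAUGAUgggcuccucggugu
miR-434-5p: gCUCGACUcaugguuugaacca
miR-434-3p: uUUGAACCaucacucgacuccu
No seed was shared among the 12 arms examined, these 6 included. Over the whole stretch from Meg3 to Mirg, 54 miRNA genes on the strand of Meg3 summed to 47 and 60 counts in the d2 libraries and to 2 and 12 in those of d4, spread over 24 genes at d2 and 9 at d4. These counts were lower in the same libraries as those of the host RNAs, and no test was made on them. Mir483, which lies inside Igf2 on the same strand, had 0 counts in both d2 libraries, and 14 and 17 in those of d4.

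The Snrpn domain of chromosome 7, which corresponds to the region of the human Prader-Willi and Angelman syndromes, was split within the paternal class. Snrpn (chr7:59982495-60140219), which encodes the splicing protein SmN, was at 277 and 334 CPM at d2 and at 49.0 and 43.7 CPM at d4 (log2 fold change -2.72, SE 0.21, edgeR adjusted p = 0.000168). Magel2, a MAGE protein that acts with ubiquitin ligases, was at 48.1 and 40.6 CPM at d2 and at 9.06 and 6.41 CPM at d4 (log2 fold change -2.52, SE 0.26, edgeR adjusted p = 0.000484). Both fell in libraries that did not overlap. Snrpn shares 27.3% of its exon length with Snurf and another gene on the same strand, and Snurf had 0 counts in all libraries, and by the counting rule a read of the shared part belongs to neither row.

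Ndn, which encodes the growth suppressor necdin and is the neighbour of Magel2, rose from 21.0 and 18.5 CPM to 48.4 and 45.8 CPM (log2 fold change 1.26, SE 0.21, edgeR adjusted p = 0.00331). The call was lost in DESeq2 when any single library was left out, with log2 fold changes from 1.15 to 1.34. Per kilobase, Ndn was 0.548 and 0.569 times Magel2 at d2 and 6.70 and 8.96 times at d4, so the order of these neighbours turned over between the days. Mkrn3, a makorin ubiquitin ligase beyond them, was at 4.66 and 5.92 CPM at d2 and at 5.25 and 6.06 CPM at d4, with overlapping libraries (log2 fold change 0.10, SE 0.28, edgeR adjusted p = 0.814).

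Ube3a, the maternally expressed ubiquitin ligase of the domain, also had replicates that disagreed. It was at 96.5 and 213 CPM at d2 and at 42.1 and 227 CPM at d4, so the replicates differed more than the days (log2 fold change -0.20, SE 0.72, edgeR adjusted p = 0.85). Without d4 replicate 2 it was called lower (log2 fold change -1.88), while without d2 replicate 2 or d4 replicate 1 the estimates were 0.47 and 0.55. On the opposite strand, 27.3% of its exon length overlaps other genes, among them Snhg14, the antisense transcript of the paternal allele. Snhg14, named here after its values were seen, was at 34.7 and 159 CPM at d2 and at 5.59 and 41.9 CPM at d4 and did not pass the test (log2 fold change -2.02, SE 0.96, edgeR adjusted p = 0.145). With a GC content of 38.2%, Ube3a had the lowest of the 43 genes.

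Markers of neural cells, in which Snrpn, Magel2 and the Meg3 RNAs are known to be strongly expressed, were lower at d4 as well. Of 9 tested, 8 fell and 0 rose, with a summed level of 334 to 351 CPM at d2 and 79.4 to 91.2 CPM at d4. Elavl3, Neurod1 and Neurog2 were at 0 in both d4 libraries. The pluripotency markers summed to 1185 to 1506 CPM at d2 and 46.1 to 50.4 CPM at d4. The part of either group in the fall of these imprinted genes was not tested.

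**Figure D3:**
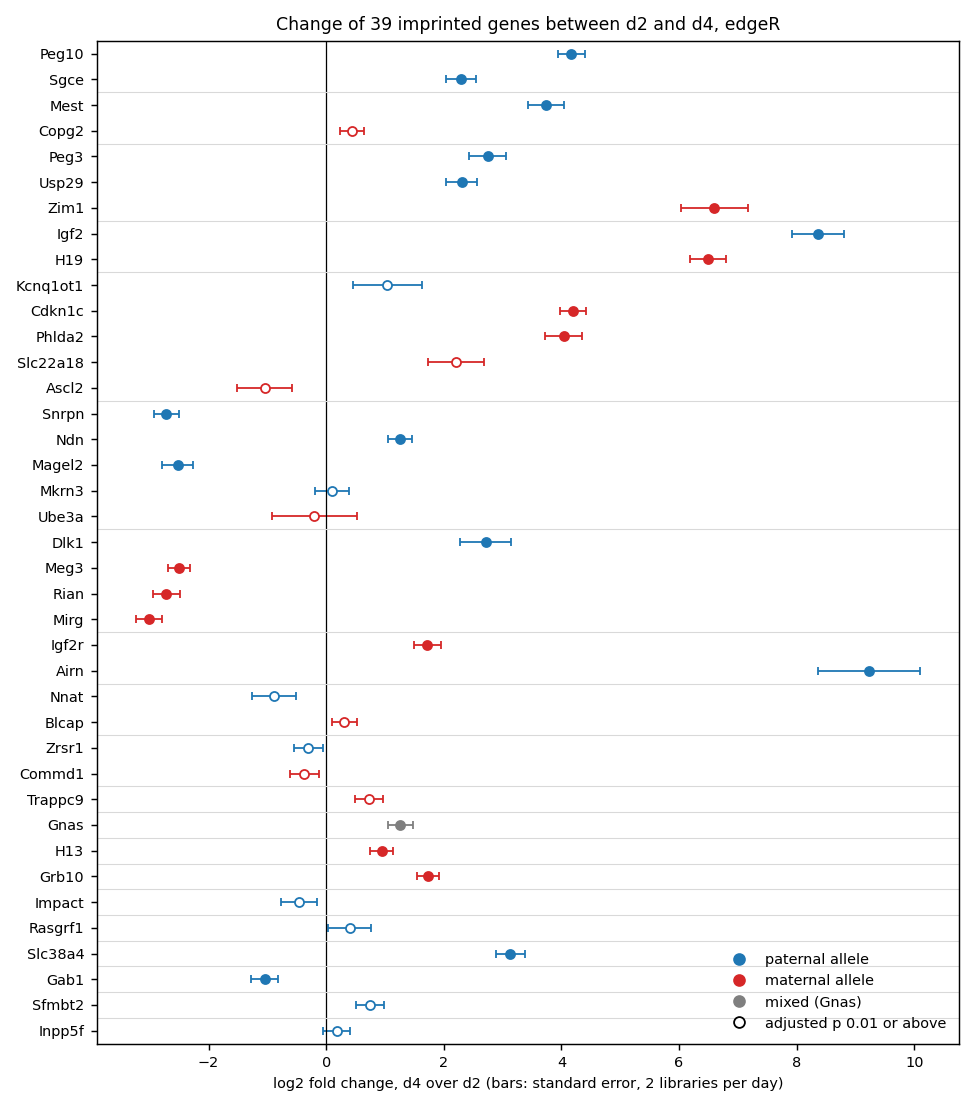
Log2 fold change of d4 over d2 for the 39 imprinted genes tested, in domain order with grey lines between domains, from edgeR with bars of 1 standard error. Blue points are paternal, red points maternal and the grey point is Gnas, and open points did not pass an adjusted p under 0.01. The 18 genes that rose spread from H13 at 0.94 to Igf2 at 8.36 and Airn, whose position depends on the prior count because it had 0 counts at d2, and the 6 that fell lie between -1.05 (Gab1) and -3.01 (Mirg).

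At the Igf2r domain of chromosome 17, the receptor and its antisense RNA rose together. Igf2r (chr17:12682406-12769664, minus strand), the receptor that clears IGF2 and sorts lysosomal enzymes, was at 126 and 94.8 CPM at d2 and at 387 and 339.9 CPM at d4. The days did not overlap (log2 fold change 1.72, SE 0.22, edgeR adjusted p = 0.00119). Airn (chr17:12741311-12860136, plus strand), the paternal noncoding RNA that starts within Igf2r and silences its paternal copy, had 0 counts in both d2 libraries and 51 and 114 in those of d4, or 4.32 and 6.71 CPM. With the same floor it was at least 23.3-fold higher at d4 (edgeR adjusted p = 0.000602). Per kilobase of exon, Igf2r was 34.7 and 19.6 times Airn at d4. Airn is known to be mostly unspliced, and only its annotated exons were counted.

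Among the genes that signal downstream of growth factors, Grb10, an adaptor that damps the insulin and IGF1 receptors, rose from 249 and 266 CPM to 899.7 and 804 CPM (log2 fold change 1.73, SE 0.19, edgeR adjusted p = 0.000541). Gnas, the stimulatory G protein subunit, rose from 466 and 394 CPM to 1173 and 891 CPM (log2 fold change 1.26, SE 0.22, edgeR adjusted p = 0.00402). The transcripts of the Gnas locus, which differ in the allele they come from, share 1 row of the table, so these counts cannot be split among them. In DESeq2 the Gnas call was lost without either d2 library, with log2 fold changes of 1.38 and 1.13. H13, a signal peptide peptidase, was at 49.1 and 51.5 CPM at d2 and at 100.5 and 92.9 CPM at d4 (log2 fold change 0.94, SE 0.19, edgeR adjusted p = 0.00802). Its call was lost when any single library was left out (0.88 to 1.00 in edgeR).

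Slc38a4, Sfmbt2 and Gab1 are paternally expressed chiefly in tissues outside the embryo proper. Slc38a4, an amino acid transporter of the placenta, was at 90.4 and 112 CPM at d2 and at 772 and 1005 CPM at d4 (log2 fold change 3.13, SE 0.24, edgeR adjusted p = 0.000148). Gab1, an adaptor of receptor tyrosine kinases, fell from 120.1 and 122 CPM to 67.7 and 49.5 CPM (log2 fold change -1.05, SE 0.22, edgeR adjusted p = 0.00995). The days did not overlap, yet the Gab1 call stood at the threshold and was lost in edgeR with DESeq2 size factors on all 4 libraries. It was also lost without d4 replicate 2 in edgeR (log2 fold change -0.84) and in DESeq2 (-0.85), and without either d2 library in both tools. Sfmbt2, a Polycomb protein, was at 11.1 and 14.0 CPM at d2 and at 20.1 and 22.0 CPM at d4 and did not pass (log2 fold change 0.74, SE 0.24, edgeR adjusted p = 0.0466).

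None of the other imprinted genes passed the test, and 3 of them were hardly detected. Trappc9, a subunit of a trafficking complex, went from 13.6 and 11.5 CPM to 22.8 and 18.9 CPM and did not pass (log2 fold change 0.73, SE 0.24, edgeR adjusted p = 0.0493). Nnat, a small membrane protein known from brain, was at 1.88 and 2.43 CPM at d2 and at 0.931 and 1.35 CPM at d4 (log2 fold change -0.89, SE 0.38, edgeR adjusted p = 0.111). The log2 fold changes of Blcap, Zrsr1, Commd1, Impact, Rasgrf1 and Inpp5f lay between -0.47 and 0.40, with edgeR adjusted p-values from 0.27 to 0.566. Impact, a regulator of translation, was the most abundant of these at 194 and 274 CPM at d2 and 125 and 212 CPM at d4. Counts never exceeded 3 in any library for Plagl1 (1 and 1 at d2, 0 and 1 at d4), Nap1l5 (0 and 3, 0 and 1) and Peg13 (0 and 0, 1 and 1), and no difference could be detected for them at this depth.

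The spread between replicates of these genes followed base composition. Over the 39 tested imprinted genes, the ratio of replicate 2 to replicate 1 ran with GC content at a Spearman rho of -0.64 at d2 and -0.55 at d4, values that describe genes sharing the same libraries. At d4 the ratio was 5.39 for Ube3a, 3.72 for Kcnq1ot1, 2.54 for Zim1 and 1.85 for Peg3, all with a GC content of 47.1% or less. With the GC trend removed from the counts, 21 imprinted genes were higher and 6 lower, where 2896 (19.4%) and 2788 (18.7%) of all genes tested were. All 24 genes called without that step were among them, joined by Kcnq1ot1 (log2 fold change 1.37), Slc22a18 (2.04) and Sfmbt2 (0.76).

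**Figure D4:**
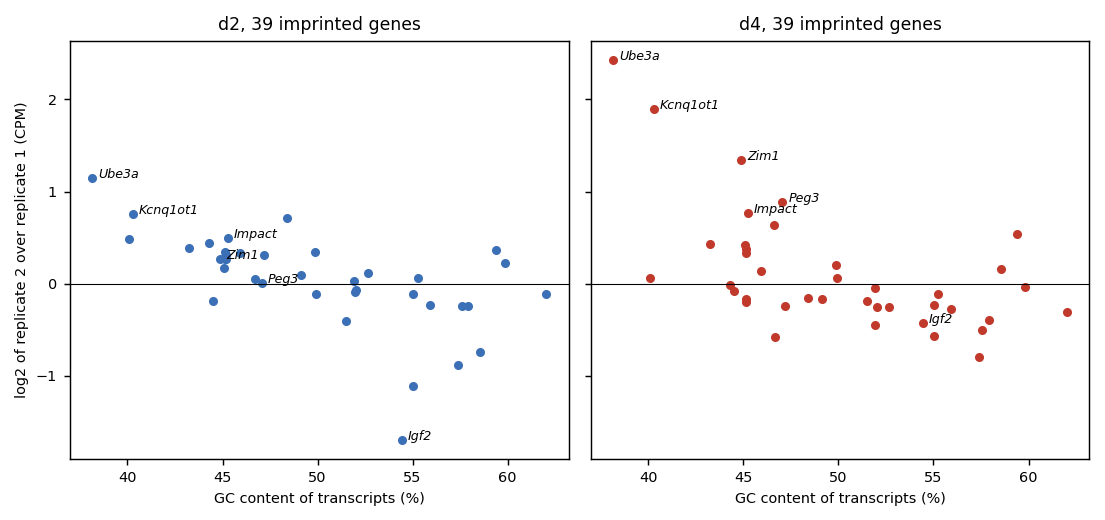
Agreement of replicates for the 39 tested imprinted genes against the GC content of their transcripts in percent, as the log2 of replicate 2 over replicate 1 in CPM, at d2 (left) and d4 (right). Each point is a gene, and Airn has no point at d2, where it had 0 counts in both libraries. Ube3a and Kcnq1ot1, at low GC, lie highest at d4, while other genes of low GC such as Rian and Sgce lie near 0 there and Ndn lies below 0 on both days.

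The genes next to the domains, taken as the nearest tested gene on either side that is not itself on a list of imprinted genes, numbered 44. Of these 9 rose and 5 fell, where 12.9% and 11.3% of all genes tested did, with a median log2 fold change of 0.33. The 9 include Igf2os, which overlaps exons of Igf2. Besides Igf2os, the smallest adjusted p-values were those of Gm32885 beside Slc38a4, a noncoding RNA that fell (log2 fold change -6.63), of Id1 beside H13, an inhibitor of bHLH factors that rose (4.41), and of Tspan32 on the side of Igf2, a tetraspanin of blood cells that rose (6.81). Some flanks lie far from the domain, at up to 4461850 bases, and the difference between flanks and imprinted genes was not tested.

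Of 41 further imprinted genes, 29 were tested, of which 9 rose, 4 fell and 16 did not pass, with a median log2 fold change of 0.73. Over all genes tested the shares were 12.9% higher and 11.3% lower. Asb4, an ankyrin repeat protein of ubiquitin ligases that lies in the Peg10 cluster and is known from endothelium, rose from 1.06 and 1.67 CPM to 220.5 and 239 CPM (log2 fold change 7.38, SE 0.31, edgeR adjusted p = 3.96e-05). Pde10a, a phosphodiesterase, rose from 0.981 and 0.911 CPM to 17.5 and 18.9 CPM (log2 fold change 4.26), and Kcnk9, a potassium channel next to Peg13, from 0.245 and 0.456 CPM to 11.1 and 8.47 CPM (4.75). Cobl, an actin nucleator next to Grb10, fell from 9.24 and 7.67 CPM to 0.254 and 0.118 CPM (log2 fold change -5.52, SE 0.45, edgeR adjusted p = 0.000182). The neighbours Grb10 and Cobl thus moved in opposite directions. The Peg10 cluster was mixed. Of its other listed genes, Casd1 and Pon2 rose (log2 fold changes 1.41 and 1.60), Calcr, the calcitonin receptor, fell (-4.08, SE 0.50, edgeR adjusted p = 0.000957), Pon3 and Ppp1r9a did not pass (1.40 and 0.13), and Tfpi2 was too low to be tested.

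Of 15 regulators of imprints, all tested, 2 rose, 5 fell and 8 did not pass, with a median log2 fold change of -0.78. Again, 12.9% of all genes tested rose and 11.3% fell. The de novo methyltransferase Dnmt3b went from 4130 and 3428 CPM to 216 and 198 CPM (log2 fold change -4.19, SE 0.22, edgeR adjusted p = 5.34e-05). Its partner Dnmt3l went from 25.3 and 19.4 CPM to 0.0846 and 0.235 CPM (log2 fold change -6.95), and Dppa3, which shields imprints in the early embryo, had 25 and 36 counts in the d2 libraries and none at d4, at least 11.1-fold lower. Zfp57, which holds methylation at imprints, rose from 32.5 and 35.2 CPM to 93.6 and 89.8 CPM (log2 fold change 1.44, SE 0.19, edgeR adjusted p = 0.00141). Zfp445, named beside it above, was at 232 and 340 CPM at d2 and at 107 and 181 CPM at d4. It lay lower in libraries that did not overlap but did not pass (log2 fold change -0.99, SE 0.31, edgeR adjusted p = 0.0444). The maintenance enzymes did not pass the test, with log2 fold changes of 0.17 for Dnmt1 (SE 0.23) and -0.056 for Uhrf1 (SE 0.19).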

How the data were processed

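RNA-seq values of mESCs, 2 libraries each of d2 and d4, were taken from the deposited table of raw counts per gene. Per the study's methods, the authors made these counts from paired-end 75 bp reads of strand-specific libraries, trimmed with cutadapt, aligned to mm10/GRCm38 with STAR and counted with featureCounts on the reverse strand, leaving out reads that mapped to several places or overlapped several genes. Their annotation is named both as GENCODE and as Ensembl. Symbols, positions and exon lengths were taken from GENCODE M21, which held 55227 of 55487 IDs. The methods give 2 independent differentiation experiments, but the labels do not say which libraries shared one.

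The filter kept a gene if its summed counts on either day exceeded 0.5 CPM by a one-sided proportion test with a Benjamini-Hochberg adjusted p under 0.05. The test was edgeR 4.0.16 in R 4.3.3 (TMM, glmQLFit and glmQLFTest, day as the only term, two-sided), with adjustment over all 14932 genes and calls at 0.01; SE came from the coefficient and the F statistic. Counting intervals and floors cover counting error only. Alternatives were DESeq2 1.42.0, limma voom 3.58.1, other scalings, filters and thresholds, a GC correction, a replicate block and leaving out each library; the procedure was tested on simulated data. All 43 genes are named. Among the further imprinted genes, the regulators of imprints and the flanks, the 4 genes with the smallest adjusted p are named. The marker lists are given as counts and sums, and their named genes do not follow that rule. Maintenance enzymes, Zfp445, marker genes, miRNAs, Snhg14, Dio3, Begain and the other genes of the Peg10 cluster were named after their values were seen. The members and lists were chosen with earlier results of these data known.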

Additional observations from a re-analysis of the deposited data

How the results depend on the processing

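All 24 calls among the imprinted genes held with limma voom, DESeq2, no filter, an adjusted p under 0.05, the replicate block and the GC correction. Gab1 was lost with DESeq2 size factors and with filterByExpr, and H13 with upper-quartile factors and with a log2 fold change of at least 1. Without a filter Kcnq1ot1, Slc22a18 and Rtl1 were called higher as well. Over all genes, 2901 were higher and 2873 lower without a filter, and 2991 and 2679 at an adjusted p under 0.05. With the GC trend removed 2788 were lower without the block and 2759 with it.

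Leaving out each library gave 0 to 2269 genes higher and 0 to 2475 lower over all genes, and 0 to 19 imprinted genes higher and 0 to 6 lower; the counts of 0 came from edgeR without either d2 library, where DESeq2 called 1049 and 985 genes higher and 730 and 722 lower. Without 1 of the d4 libraries DESeq2 called 1248 and 1268 genes higher. No log2 fold change that changed sign was called. That of Kcnq1ot1 was -0.21 (edgeR) and -0.22 (DESeq2) without d4 replicate 2, and up to 1.68 in edgeR without the others. Mkrn3 gave -0.057 and -0.072 without d2 replicate 1, -0.013 and -0.024 without d4 replicate 2, and up to 0.24 (edgeR) and 0.27 (DESeq2) without the others. Ube3a gave -1.88 (called lower) without d4 replicate 2 in edgeR, 0.18 and 0.10 with the GC trend removed, without and with the block, 0.47 and 0.49 without d2 replicate 2 and 0.55 and 0.59 without d4 replicate 1. Inpp5f gave -0.0086 in DESeq2 without d4 replicate 2. The causes were not tested.

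The labels do not tie equal replicate numbers to a shared experiment. The deviations of replicate 1 from its day's mean correlated at 0.48 between the days. With the replicate block 3478 genes were higher and 3496 lower, and 22 imprinted genes were higher and 6 lower, with Kcnq1ot1, Slc22a18, Trappc9 and Sfmbt2 joining. With 2 libraries per day and 3 counts as the floor, Rtl1, Peg13, Plagl1 and Nap1l5 could not be tested.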
